A study of Zea mays with 6 samples.

Results

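The 10 genes described here are the most abundant APETALA2-subfamily transcription factor genes of the immature maize ear. They were taken from a table of 42508 genes. A gene qualified if it carried the AP2 DNA-binding domain (Pfam PF00847, present in 226 genes) and if its best Swiss-Prot match was named an APETALA2-like protein or an AP2-like ethylene-responsive factor. That left 21 genes, and the 10 with the most reads summed over all libraries were kept. They held 57098 of the 58143 reads of the 21 genes, or 98.2%. The choice used abundance over both lines together and not the difference between them.

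Young ears of A12 and B46, a pair of nearly isogenic maize lines from a teosinte by maize cross, were compared by sequencing of polyadenylated RNA. A12 carries the teosinte form (from Zea mays ssp. parviglumis, the wild ancestor of maize) of the kernel row number locus qKRN5.04b on chromosome 5, and B46 carries the maize form. All plants were grown under standard conditions, and ears were taken at leaf stages V6 to V9 as primordia of 1.5 to 2.0 mm, when the inflorescence meristem forms spikelet pair meristems. Each line was represented by 3 libraries, each a pool of at least 50 ears, and each genotype is a single line, so an effect of the locus cannot be told apart from other differences between the lines.

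Total gene counts were 14625831 to 15675012 in A12 and 15145371 to 15432882 in B46. Libraries of A12 were less alike than those of B46, with correlations of log2 scaled counts across genes, which are not independent replicates, of 0.937 to 0.981 in A12 and 0.969 to 0.989 in B46. The lowest of these values, 0.937, was between A12 replicates 1 and 2. Between libraries of different lines the correlations were 0.906 to 0.940. A12 replicate 2 was thus no closer to A12 replicate 1 than to B46 replicates 1 and 2 (0.938 each). The labelled tissue was checked with KNOX homeobox genes, which mark meristems. KNOTTED 1 (Zm00004b005000) had between 4203 and 7847 reads in A12 libraries and between 6875 and 8473 in B46 libraries. Of 20 KNOX genes, 12 were tested and 2 were higher in A12, Zm00004b005271 (log2 fold change 1.73) and Zm00004b005003 (0.99), with 0 lower. That is 16.7% of the 12, where 9.86% of all genes tested differed by the same edgeR rule, given below. The KNOX calls depended on the analysis. DESeq2 called 2 higher and 1 lower, as did edgeR when A12 replicate 2 was left out. Leaving out A12 replicate 1 gave 2 higher and 2 lower, and leaving out A12 replicate 3 gave 1 higher and 0 lower. Over all genes tested, DESeq2 called 15.4%. EdgeR called 9.41%, 19.3% and 1.73% of them without A12 replicate 2, 1 and 3.

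AP2-subfamily proteins fall into a pair of lineages. The AINTEGUMENTA and PLETHORA lineage keeps cells dividing and sets the identity of young organs and stem cell regions. AINTEGUMENTA promotes organ size in Arabidopsis, PLETHORA factors pattern the root tip and also act in shoot organ initiation there, and CRL5 of rice is needed for crown root formation and acts downstream of auxin. The APETALA2 lineage is repressed by the microRNA miR172. In grasses it controls when spikelet meristems turn into florets, and in Arabidopsis APETALA2 itself specifies outer floral organs and represses the class C gene AGAMOUS. The table gives no maize gene symbols, so each gene below is called by its best Swiss-Prot match, and a match to CRL5 does not show that a gene acts in roots. By these matches 7 of the 10 belong to the AINTEGUMENTA lineage and 3 to the APETALA2 lineage.

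A12 ears had much less RNA of a pair of CRL5-type genes and more of an AIL5-type (PLETHORA-related) gene than B46 ears. Zm00004b010762 was 6.21-fold lower in A12 and Zm00004b034737 was 2.73-fold lower, by mean scaled counts, and Zm00004b006084 was 1.92-fold higher. The other 7 genes did not pass the test. A gene was called when edgeR's quasi-likelihood test gave a Benjamini-Hochberg adjusted p under 0.05 over all 22741 genes tested. By this rule 3 of the 10 genes were called, where 9.86% of all genes tested were. Of the 3, 1 was higher in A12, against 4.61% of all genes, and 2 were lower, against 5.25%. Without A12 replicate 3 the count of called members was 1, the AIL5-type gene, where 1.73% of all genes tested were called. The median log2 fold change, always A12 minus B46, was -0.18 over the 10 genes and 0.01 over all genes tested. Values of the lines did not overlap for 4 of the 10 genes, where 33.4% of all genes tested had no overlap. The series describes the pools as biological replicates, so the p-values measure the spread between pools of ears.

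**Figure D1:**
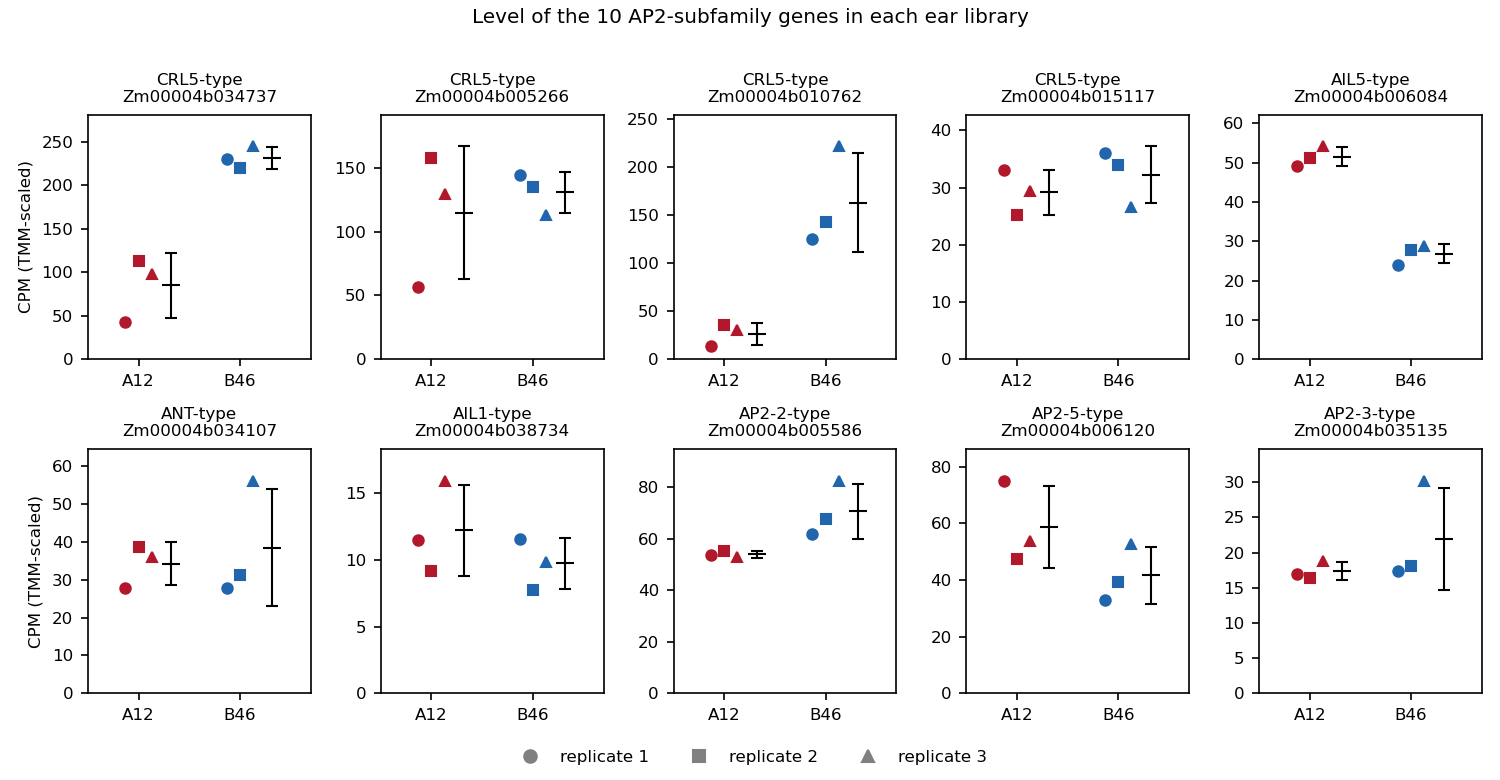
Level of each of the 10 genes in every library, in CPM after TMM scaling, with A12 (red) left of B46 (blue). Symbols are replicates, and black bars show the mean and SD of 3 libraries. The A12 points lie wholly below B46 for Zm00004b034737, Zm00004b010762 and Zm00004b005586, and wholly above for Zm00004b006084.

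Of the 4 CRL5-type genes, Zm00004b010762 on chromosome 2 (242566233 to 242569356, minus strand) changed the most. It had 197, 505 and 463 reads in A12 replicates 1, 2 and 3, against 1903, 2237 and 3424 reads in B46 replicates 1, 2 and 3. The highest A12 library was thus far under the lowest B46 library. After scaling the means were 26.2 ± 11.4 CPM (counts per 1e6 library reads after TMM scaling) in A12 and 163 ± 51.4 CPM in B46 (SD, n = 3 each). The log2 fold change was -2.63 (SE 0.37, adjusted p = 0.0081 by edgeR). Without A12 replicate 3 the call was lost (adjusted p = 0.0535 by edgeR), with a log2 fold change of -2.74. Calls over all genes tested fell from 2242 to 401 in that setting.

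Zm00004b034737, on chromosome 7 (3582256 to 3587142, plus strand), was the most abundant of the 10 genes. It had 632, 1628 and 1517 reads in A12, against 3516, 3452 and 3791 reads in B46. The B46 libraries lay close together, while A12 replicate 1 stood well under the other A12 libraries. Means were 84.9 ± 37.0 CPM in A12 and 232 ± 12.5 CPM in B46. The log2 fold change was -1.45 (SE 0.32, adjusted p = 0.0321 by edgeR). The direction was kept in all 14 alternative analyses, but the call was lost in 6 of them, namely when A12 replicate 3 or any of the 3 B46 libraries was left out and with limma on log2(FPKM + 0.1) with or without a filter (highest adjusted p = 0.114).

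The other CRL5-type genes were not called. Zm00004b005266, on chromosome 1 (289732073 to 289736210, plus strand), had 836, 2268 and 1999 reads in A12, against 2203, 2122 and 1745 in B46. The lines overlapped, since only A12 replicate 1 was low. Its log2 fold change was -0.19 (SE 0.33, adjusted p = 0.758 by edgeR), and it was 0.14 without A12 replicate 1. Zm00004b015117 (211695704 to 211700023, minus strand) is the only member on chromosome 5, the chromosome of qKRN5.04b. Whether the gene lies in or near that locus was not tested. Zm00004b015117 had 484, 361 and 452 reads in A12, against 551, 533 and 412 in B46, and the lines overlapped. Its log2 fold change was -0.14 (SE 0.15, adjusted p = 0.592 by edgeR).

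Within A12, 3 of the CRL5-type genes went up and down together from library to library. The highest A12 library exceeded the lowest 2.63-fold for Zm00004b034737, 2.77-fold for Zm00004b005266 and 2.62-fold for Zm00004b010762, in CPM. For all 14984 tested genes with a mean of at least 10 CPM, the median of this ratio was 1.25 in A12. Zm00004b015117 did not share the pattern, with a ratio of 1.31 and its highest A12 value in replicate 1. In B46 the ratios were 1.11, 1.28, 1.78 and 1.36 for the 4 genes Zm00004b034737, Zm00004b005266, Zm00004b010762 and Zm00004b015117. The order of the A12 libraries was not particular to CRL5-type genes. KNOTTED 1 stood at 287, 546 and 454 CPM in A12 replicates 1, 2 and 3, and the rough sheath 1 match Zm00004b034746 at 135, 268 and 229 CPM. A12 replicate 1 was the lowest A12 library for 7 of the 12 KNOX genes tested, and for 43.4% of all genes tested.

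Ratios among those 3 CRL5-type genes inside a library were steady within A12 and did not overlap between the lines. Levels were taken per length for this, as the deposited FPKM, in which a count is divided by gene length and library size. Zm00004b034737 stood at 0.636, 0.604 and 0.639 times Zm00004b005266 in A12 replicates 1, 2 and 3, against 1.34, 1.37 and 1.83 times in B46 replicates 1, 2 and 3. Zm00004b005266 exceeded Zm00004b010762 by 4.03, 4.26 and 4.10 times in A12, against 1.10, 0.901 and 0.484 times in B46. All 6 pairs among the 4 genes were compared with a two-sided exact permutation test on the log2 ratio, and 5 pairs reached p = 0.1, the smallest that 3 against 3 libraries allow (adjusted p = 0.12). The exception was Zm00004b005266 over Zm00004b015117, at 3.51 ± 1.94 in A12 and 3.45 ± 0.12 in B46 (SD, n = 3 each). That is the only pair without Zm00004b034737 or Zm00004b010762, the genes called lower in A12. The differences between the lines in these ratios thus restate those calls.

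A12 replicate 1, the library lowest in those 3 CRL5-type genes, was also the library highest in flower genes. Summed levels of 26 genes annotated as floral organ identity MADS-box factors were 1293, 424 and 668 CPM in A12 replicates 1, 2 and 3, and 156, 146 and 90.8 CPM in B46. Of those 26 genes, 19 were tested, 16 were higher in A12 and 0 lower, and 4 were at 0 reads in every library. The 16 made up 84.2% of those tested, where 4.61% of all genes tested were called higher in A12. The 16 calls became 6 of 21 tested without B46 replicate 2, where 1.86% of all genes tested were called. They became 8 of 19 without A12 replicate 3, against 1.73% of all genes. They became 8 of 21 without B46 replicate 1 or B46 replicate 3, against 3.07% and 6.09%. There were 16 of 19 without A12 replicate 1, against 19.3%, and 18 of 21 without A12 replicate 2, against 9.41%. The 20 KNOX genes summed to 1054, 1601 and 1438 CPM in A12 and to 1415, 1316 and 1104 CPM in B46. Summed photosystem and chlorophyll a-b binding genes, which mark green tissue, were at 709, 135 and 289 CPM in A12 and at 195, 219 and 282 CPM in B46 (70 genes, 11 of them at 0 throughout). The part of these shifts in the CRL5-type values was not tested. In RNA from whole ears, fewer cells that express a gene and less RNA per cell cannot be told apart. Without A12 replicate 1, the log2 fold change was -2.32 for Zm00004b010762 and -1.13 for Zm00004b034737 (adjusted p = 0.00199 and 0.000887 by edgeR), so both were lower in A12 without that library as well. The MADS-box sums of A12 replicates 2 and 3, at 424 and 668 CPM, were still above every B46 library. That difference between the lines therefore stayed when A12 replicate 1 was left out.

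**Figure D2:**
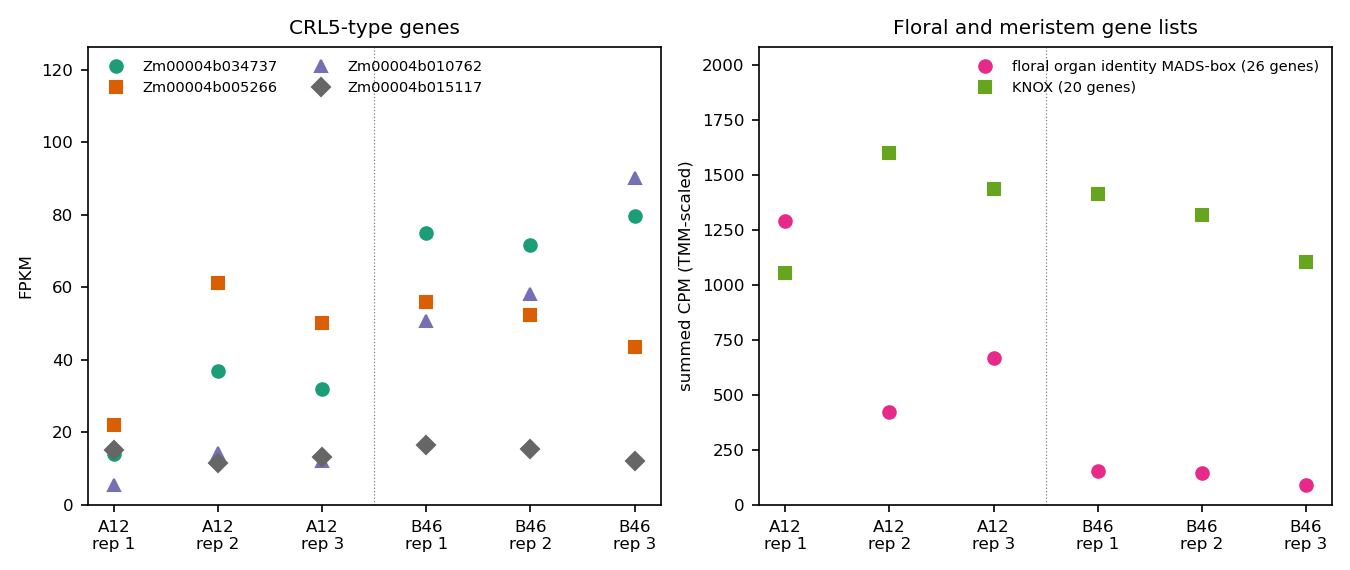
Left, level of the 4 CRL5-type genes in each library, in FPKM. Right, summed CPM of 26 floral organ identity MADS-box genes and of 20 KNOX genes in the same libraries. A12 replicate 1 is lowest for 3 CRL5-type genes and for KNOX within A12, and highest for the MADS-box sum at 1293 CPM.

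The AIL5-type gene Zm00004b006084 was the member with the lowest adjusted p. AIL5 of Arabidopsis, also called PLETHORA 5, acts in the placement and growth of shoot organs. The maize gene lies on chromosome 2 (4718985 to 4724179, plus strand). It had 722, 737 and 834 reads in A12, against 367, 434 and 444 reads in B46. Libraries agreed closely within each line and the lines were well apart. Means were 51.5 ± 2.46 CPM in A12 and 26.8 ± 2.45 CPM in B46 (SD, n = 3 each). The log2 fold change was 0.94 (SE 0.10, adjusted p = 0.00366 by edgeR). It was called in all 14 alternatives, with log2 fold changes of 0.87 to 0.99.

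The remaining members of the AINTEGUMENTA lineage were not called. The ANT-type gene Zm00004b034107 (chromosome 9, 149609158 to 149613379, minus strand) matches AINTEGUMENTA, which prolongs growth of floral organs in Arabidopsis. It had 408, 556 and 556 reads in A12, against 425, 491 and 868 in B46. Only B46 replicate 3 was high, and the lines overlapped. Its log2 fold change was -0.17 (SE 0.27, adjusted p = 0.735 by edgeR), and it was 0.21 without B46 replicate 3. The AIL1-type gene Zm00004b038734 (chromosome 10, 72736281 to 72739850, minus strand) had 169, 132 and 246 reads in A12, against 177, 122 and 153 in B46 (log2 fold change 0.33, SE 0.24, adjusted p = 0.43 by edgeR). It was the least abundant of the 10, with 999 reads over all libraries.

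None of the 3 APETALA2-lineage genes was called by edgeR. An unadjusted p under 0.05 was found for 1 of them by edgeR, where 27.2% of all genes tested had one, and for 2 by DESeq2. DESeq2 called 0 of the 3 and 15.4% of all genes, and limma on log2(FPKM + 0.1) called 0 of the 3 and 6.62% of all genes. The gene matching APETALA2-like protein 2, Zm00004b005586 (chromosome 1, 301784395 to 301788752, plus strand), came nearest to the threshold. It had 788, 796 and 816 reads in A12, against 944, 1061 and 1279 in B46. All A12 libraries were under all B46 libraries, and they varied by only 1.05-fold in CPM, the narrowest A12 spread among the 10 genes and less than counting error alone would give (SD 2.32% of the mean, against 3.54%). Means were 54.0 ± 1.25 CPM in A12 and 70.7 ± 10.7 CPM in B46. The log2 fold change was -0.39 (SE 0.12, adjusted p = 0.0879 by edgeR).

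Zm00004b006120, which matches APETALA2-like protein 5, lies on chromosome 2 (5362676 to 5366175, minus strand). It had 1102, 683 and 829 reads in A12, against 505, 615 and 817 in B46. A12 replicate 2, at 47.5 CPM, lay under B46 replicate 3, at 52.8 CPM, so the lines overlapped. The log2 fold change was 0.50 (SE 0.22, adjusted p = 0.2 by edgeR). Unlike 3 of the CRL5-type genes, it had its highest A12 value in replicate 1. The gene is 638.5 kb from the AIL5-type gene Zm00004b006084.

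Zm00004b035135, which matches APETALA2-like protein 3 (chromosome 7, 23017167 to 23021422, plus strand), had 248, 236 and 290 reads in A12, against 265, 284 and 468 in B46. B46 replicate 3 stood above all other libraries. The log2 fold change was -0.33 (SE 0.22, adjusted p = 0.38 by edgeR), and it was -0.03 without that library. As a group, the 3 APETALA2-lineage genes summed to 146, 119 and 126 CPM in A12 and to 112, 125 and 166 CPM in B46. The sums overlapped, whereas those of the 7 AINTEGUMENTA-lineage genes, at 235, 431 and 394 CPM in A12 and 599, 599 and 700.0 CPM in B46, did not. That gap came from the 2 called CRL5-type genes. Without them, a division made after the values were seen, the other 5 genes of the lineage summed to 179, 282 and 265 CPM in A12 and to 244, 236 and 234 CPM in B46, which overlapped.

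**Figure D3:**
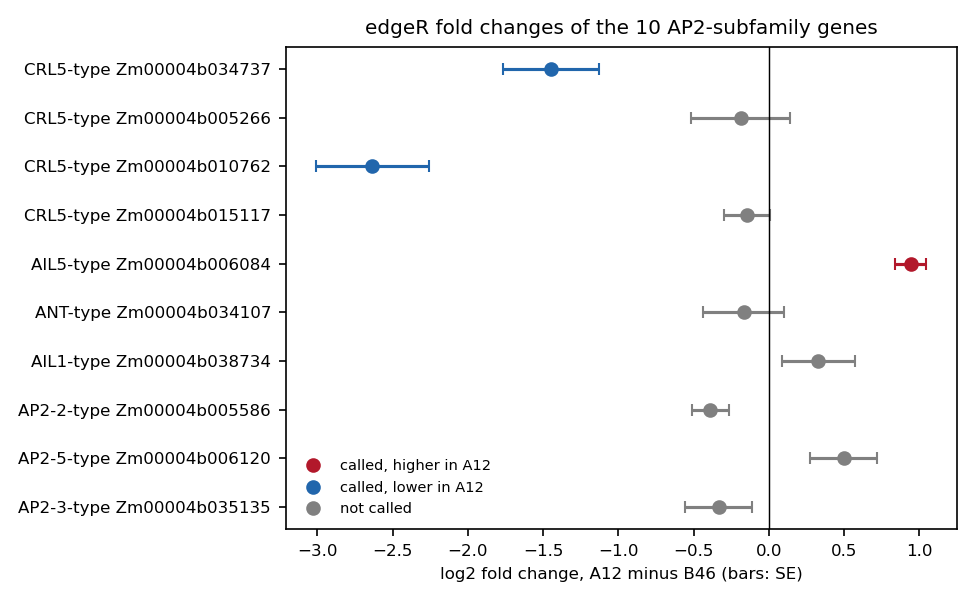
Log2 fold change (A12 minus B46) of the 10 genes with its SE from edgeR, grouped by lineage from the CRL5-type genes at the top to the APETALA2-like genes at the bottom. Called genes are coloured: Zm00004b034737 and Zm00004b010762 at -1.45 and -2.63, and Zm00004b006084 at 0.94.

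B46 replicate 3 was the highest B46 library for 7 of the 10 genes, where it was so for 40.8% of all genes tested. A12 replicate 1 was the lowest A12 library for 5 of the 10, where it was so for 43.4%. By lineage, B46 replicate 3 was highest for all 3 APETALA2-lineage genes and for 4 of the 7 others, and A12 replicate 1 was lowest for 0 of the 3 and for 5 of the 7. No test of a difference between the lineages was made.

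The order of the genes by level per length differed between the lines. In A12 the order began with CRL5-type Zm00004b005266 (44.5 ± 20.1 FPKM), followed by Zm00004b006120 (27.9 ± 6.96), Zm00004b034737 (27.7 ± 12.02) and Zm00004b005586 (25.0 ± 0.618; SD, n = 3). In B46 it began with CRL5-type Zm00004b034737 (75.6 ± 4.03 FPKM), Zm00004b010762 (66.4 ± 20.9) and Zm00004b005266 (50.7 ± 6.31), with Zm00004b005586 (32.7 ± 4.96) after them. Zm00004b010762 was thus in place 8 of 10 in A12, at 10.7 ± 4.61 FPKM, and in place 2 in B46. The AIL5-type gene was in place 5 in A12, at 19.8 ± 0.864 FPKM, and in place 9 in B46, at 10.3 ± 0.939. Many neighbours in these orders were not separable. In A12, library values overlapped for every adjacent pair except places 4 and 5 and places 5 and 6. In B46 they overlapped for every adjacent pair except places 3 and 4, 4 and 5, and 9 and 10.

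**Figure D4:**
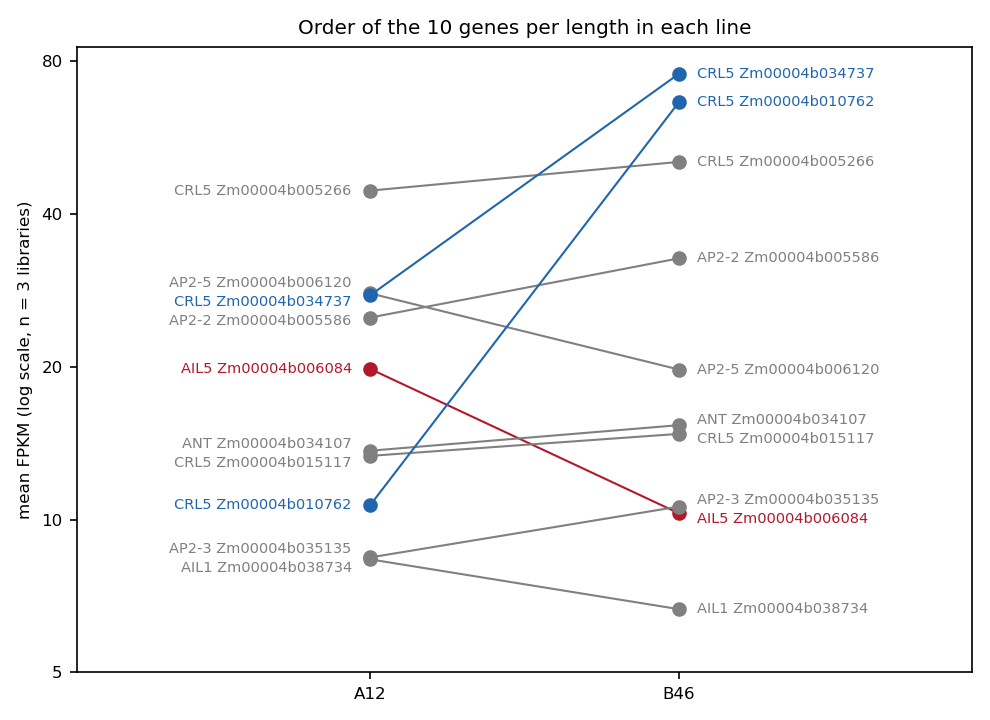
Mean FPKM of the 10 genes in A12 (left) and B46 (right) on a log axis, n = 3 libraries per line. Lines join the same gene, in blue where it was called lower in A12, in red where called higher and in grey where not called. Zm00004b010762 is at 10.7 FPKM in A12 and 66.4 FPKM in B46.

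The CRL5-type genes made up a smaller share of the 10 genes' RNA in A12, and 2 of the 4 carried this difference. Their summed level was 38.5%, 60.3% and 55.4% of the 10-gene total in A12 replicates 1, 2 and 3, and 75.3%, 73.5% and 69.9% in B46, in CPM. The whole set summed to 381, 550 and 519 CPM in A12 and to 711, 724 and 866 CPM in B46. The lines did not overlap in either measure. Both measures restate the calls of Zm00004b034737 and Zm00004b010762. With those 2 genes left out of both parts of the ratio, the other CRL5-type genes held 27.7%, 45.6% and 40.7% in A12 and 50.7%, 46.9% and 34.9% in B46. The remaining 8 genes summed to 324, 401 and 391 CPM in A12 and to 356, 361 and 399.6 CPM in B46, so the lines overlapped in both.

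Position was looked at because the lines share most of their genome. None of the 10 genes overlapped another annotated gene. Within 1 Mb on either side of each gene, 0% to 16.7% of the other tested genes were called, against 9.86% over all genes. The highest share, 8 of 48 genes, was around Zm00004b015117 on chromosome 5. Around Zm00004b010762 it was 2 of 49, around Zm00004b034737 3 of 28, and around Zm00004b006084 6 of 58. A KNOX gene lay within 1 Mb of 3 of the 4 CRL5-type genes, a pattern chosen after the values were seen. Zm00004b010761, matching rough sheath 1, is 51.3 kb from Zm00004b010762 and had a log2 fold change of 0.13 (SE 0.23, adjusted p = 0.752 by edgeR), beside -2.63 for its CRL5-type neighbour. Near Zm00004b034737, at 411 kb and 412 kb, the rough sheath 1 matches Zm00004b034745 and Zm00004b034746 had log2 fold changes of 0.15 and 0.19 (adjusted p = 0.779 and 0.687 by edgeR). Zm00004b005271, which matches knotted-1-like 12 and was higher in A12, is 208 kb from Zm00004b005266.

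The pair of the 10 genes with the most similar profiles over the 6 libraries was Zm00004b005586 and Zm00004b035135, both of the APETALA2 lineage. The root-mean-square distance between their centred log2 CPM values was 0.165, the smallest of 45 pairs. Similarity did not follow lineage throughout. The next pairs joined ANT-type Zm00004b034107 with Zm00004b035135 (0.184) and with Zm00004b005586 (0.270). The third APETALA2-lineage gene, Zm00004b006120, was nearest to AIL5-type Zm00004b006084 (0.344). The most distant pair was CRL5-type Zm00004b010762 and AIL5-type Zm00004b006084, at 1.87. Among 17098 genes with a Swiss-Prot match, the profiles closest to that of the AIL5-type gene belonged to Zm00004b007051, a salutaridine reductase match (distance 0.0642), Zm00004b036448, matching SQUAMOSA promoter-binding-like protein 16 (0.0800), and Zm00004b015243, a tyrosine phosphatase DSP2 match (0.0866). The distances cover 6 libraries in a pair of lines, so any gene of similar fold change and low spread comes near.

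Just outside the 10 was another AIL1-type gene, Zm00004b000524, with 624 reads over all libraries. It had 11, 70 and 62 reads in A12, against 66, 122 and 293 in B46, again lowest in A12 replicate 1 and highest in B46 replicate 3. The gene after it, Zm00004b040407, matches APETALA2-like protein 5 and had 284 reads. Both passed the low-count filter and neither was called, with log2 fold changes of -1.68 and -0.18 (SE 0.71 and 0.34, adjusted p = 0.179 and 0.776 by edgeR). The other 9 of the 21 genes did not pass the low-count filter, with between 0 and 61 reads over all libraries, and 7 of them could be tested when no filter was applied. Of these, the gene matching APETALA2-like protein 1, Zm00004b028639, had 10, 8 and 12 reads in A12 and 1, 2 and 3 in B46. It was called higher in A12 by limma on log2(FPKM + 0.1) without a filter (difference 1.32 on that scale, SE 0.18, adjusted p = 0.0243) and not by edgeR without a filter (log2 fold change 2.31, SE 0.68, adjusted p = 0.0767). The 3 genes matching BABY BOOM 2, an embryo factor of the PLETHORA group, had 7, 0 and 0 reads. The 7 reads were of Zm00004b014367 on chromosome 5, with 0, 6 and 1 in A12 and 0 in every B46 library.

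Other AP2-domain genes, and families placed ahead of AP2-subfamily factors in Arabidopsis, gave mixed counts. Of 87 tested genes with an AP2 domain outside the 21, mostly ethylene-response factors, 5 were higher and 3 lower in A12, or 9.2%, near the share of all genes. Those of lowest adjusted p were the spikelet identity gene FZP (Zm00004b037561, log2 fold change 6.10), ERF003 (Zm00004b031757, -2.74) and ERF1 (Zm00004b022880, 0.69). SBP-box factors act ahead of miR172 in the ageing pathway of Arabidopsis. Of 29 tested, 4 were higher and 6 lower, or 34.5%, against 9.86% of all genes tested. Among them were SPL14 (Zm00004b023553, log2 fold change -1.13), SPL16 (Zm00004b036448, 0.82) and SPL13 (Zm00004b009580, 0.74). Auxin response factors switch on AINTEGUMENTA and PLETHORA-type genes in Arabidopsis flowers. Of 37 tested, 7 were higher and 2 lower, or 24.3%, led by ARF12 (Zm00004b040537, log2 fold change 1.12), ARF25 (Zm00004b002861, 1.20) and ARF17 (Zm00004b012181, 1.08). With 1 library left out, between 2 and 16 of the other AP2-domain genes, 3 and 14 of the SBP-box genes and 3 and 15 of the auxin response factors were called. In those settings 93 to 98, 29 to 30 and 37 to 39 genes of the 3 lists were tested. Each of the 3 counts was highest without A12 replicate 1, where the share called over all genes tested was also highest, at 19.3%. The lowest count came without A12 replicate 3 for each list, and equally without B46 replicate 2 for the other AP2-domain and SBP-box genes and without B46 replicate 1 for the SBP-box genes. Over all genes tested, 1.73%, 1.86% and 3.07% were called in these 3 settings.

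TOPLESS-type corepressors, which APETALA2 recruits in Arabidopsis, had 9 tested genes, of which edgeR called 0 and DESeq2 called 1. DESeq2 called 15.4% of all genes. By edgeR, 3 of the 9 had an unadjusted p under 0.05, near the 27.2% of all genes tested. A call, lower in A12, was also made with upper-quartile scaling and when A12 replicate 1 or A12 replicate 2 was left out. Over all genes tested, 10.1%, 19.3% and 9.41% were called in those settings. D-type cyclins, which drive entry into the cell cycle, had 2 of 16 called, both lower in A12 and both matching cyclin D5-2 (Zm00004b004588, log2 fold change -6.34, and Zm00004b017206, -1.02). That is 12.5%, near the 9.86% of all genes tested. Zm00004b004588 had 1, 1 and 3 reads in A12, against 151, 147 and 154 in B46. The deposited family label of both called genes is FAR1, so their place in this list rests on the Swiss-Prot match. Without B46 replicate 2 or A12 replicate 3, 1 cyclin was called, where 1.86% and 1.73% of all genes tested were. Without A12 replicate 1 or B46 replicate 3 there were 3, where 19.3% and 6.09% of all genes were called. DESeq2 called 1 higher and 3 lower, and 15.4% of all genes. In the floral organ identity list, the lowest adjusted p values belonged to a pair of MADS6 matches and a MADS16 match (Zm00004b022334, Zm00004b014719 and Zm00004b029254). The 16 called members included genes matching the class C factors MADS3 and MADS58, the class that APETALA2 represses in Arabidopsis. They also included matches to MADS1, MADS2, MADS4, MADS5, MADS7, MADS8 and MADS13, so the calls were not particular to class C. A link to the APETALA2-lineage genes was not tested. Of the 44 photosystem and chlorophyll a-b binding genes tested, 1 was called, higher in A12 (Zm00004b020412, log2 fold change 1.12), and 4 were called by DESeq2. The edgeR share is 2.27%, against 9.86% of all genes tested, and DESeq2 called 15.4% of all genes. The deposited family label of Zm00004b020412 is M-type MADS, so its place in this list rests on the Swiss-Prot match. When libraries were left out, 10 of 48 tested were called in the absence of A12 replicate 2, against 9.41% of all genes tested. In the absence of A12 replicate 1, 2 of 44 were called, against 19.3%. There were 0 in the absence of A12 replicate 3 or any 1 of the B46 libraries, against 1.73% to 6.09% of all genes.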

How the data were processed

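Per the labels, polyadenylated RNA was sequenced from 3 pools per line. The authors deposited unnormalized counts of reads for each gene, and FPKM values that equal the count divided by gene length and by a library constant of 0.962 to 1.02 times the total count. The submitters' processing notes list HISAT2 2.0.5 and DESeq2 1.20.0. Genome build, counter and strand setting were not given in the sources used here. How reads matching similar gene copies were assigned was not given either, and coordinates are as deposited, without a build. Groups came from sample titles.

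In R 4.3.3, edgeR 4.0.16 was run on the counts with its default expression filter, TMM scaling and line as the only term, two-sided, over 22741 genes. The SE is the fold change divided by the square root of F. Alternatives were DESeq2 1.42.0, limma 3.58.1 on log2(FPKM + 0.1) or log2(FPKM + 1) with a mean of at least 0.5 or no filter, other scalings and left-out libraries. Named were all 10 members, the 2 genes below them, other called subfamily genes, the up to 3 called genes of lowest adjusted p per list, and the nearest profiles (log2 CPM, prior count 2). The members and lists were chosen with earlier results of these data known. Aspartic proteinases, cyclin-dependent kinases and a MYB gene that the list terms also matched were left out.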

Additional observations from a re-analysis of the deposited data

How the results depend on the processing

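Of 140 values of the 10 genes under 14 alternatives, 131 kept direction and call. The 7 lost calls were 6 of Zm00004b034737 and 1 of Zm00004b010762. Direction turned for Zm00004b005266 without A12 replicate 1 (log2 fold change -0.49 to 0.14 with 1 library left out) and for Zm00004b034107 without B46 replicate 3 (-0.35 to 0.21). The cause was not tested. The count of called members was 1 to 3 with 1 library left out, lowest without A12 replicate 3, and the count over all 21 genes moved alike, at 1 to 3. Among all genes tested, 2242 were called, against 3506 with DESeq2, 1203 with limma on FPKM without a filter, and 401 to 4446 with 1 library left out (A12 replicate 1 gave 4446, A12 replicate 3 gave 401, and B46 replicates 1, 2 and 3 gave 714, 432 and 1410). With a replicate block, 967 genes were called and the same 3 members. Correlations of deviations were -0.12, -0.01 and 0.01 for same-numbered libraries of the lines, and -0.12 to 0.15 for differently numbered ones. Whether same-numbered pools shared any handling was not tested. With 122 to 3791 reads per member and library, the SD between pools was at least 2 times the counting error in 16 of 20 combinations of gene and line. The 4 others were Zm00004b005586 in A12, where the SD was below counting error (2.32% against 3.54% of the mean), Zm00004b035135 in A12 (7.28% against 6.23%), and Zm00004b006084 in A12 (4.77% against 3.62%) and in B46 (9.13% against 4.91%). With 3 pools per line, precision is limited.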
